A study of Mus musculus with 8 samples.

Results

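Hemoglobin genes were followed in the ventral mesencephalic area, the part of the mouse midbrain where dopaminergic neurons lie. The 5 genes were Hba-a1, Hba-a2, Hbb-b1, Hbb-b2 and Alas2, chosen by name out of 15319 genes in the table, and they were represented by 8 of its 19931 rows. Poly(A) RNA was sequenced from 4 Ercc1 delta/+ libraries, with 1 mutant allele of the DNA repair gene Ercc1, and from 4 wild type libraries. Both groups had a mixed FVB:C57BL/6J background, and the labels give no age, sex, treatment or pooling of animals, nor whether the libraries come from separate animals; the p-values thus cover the spread among these samples, which may be technical.

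Hemoglobin is a tetramer of a pair of alpha and a pair of beta chains, each holding a heme that binds oxygen. Hba-a1 and Hba-a2 are the adult alpha globin genes, both in the alpha cluster on chromosome 11, and the adult beta globin genes lie on chromosome 7, which also holds Ercc1. Alas2 on the X chromosome encodes the erythroid form of 5-aminolevulinate synthase, the enzyme that starts heme synthesis. Red blood cell precursors are the main source of these transcripts, reticulocytes still carry them, and globin transcripts have also been described in dopaminergic neurons, astrocytes and oligodendrocytes. The beta cluster differs between laboratory mouse strains: C57BL/6J carries the pair Hbb-bs and Hbb-bt, while other strains carry the pair Hbb-b1 and Hbb-b2.

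The libraries held from 18268373 to 27146604 counts in Ercc1 delta/+ and from 20517887 to 31197522 counts in wild type, with 1 row kept per gene. Totals were lowest in 3 of the Ercc1 delta/+ libraries, replicates 1, 2 and 4, together with replicate 2 of the wild type. Ercc1 itself had a log2 fold change of -0.34 (SE 0.10) and missed the threshold (edgeR quasi-likelihood test, adjusted p = 0.114). That test called 7 of 14989 genes, or 0.0467%, at a Benjamini-Hochberg adjusted p of 0.05, and the 5 that were lower in Ercc1 delta/+ made up 0.0334%. The median log2 fold change of all genes was -0.0025, and 50.5% of genes had a negative one.

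The 8 rows held only 5 distinct sets of counts. The 4 alpha globin rows formed 2 pairs, each pair identical in all 8 libraries and each made of a row of Hba-a1 and a row of Hba-a2, and the 2 beta globin rows, NM_008220 and NM_016956, were identical to each other. NM_008220 was called Hbb-b1 in older releases and is Hbb-bt in the RefSeq table used here, and NM_016956 is Hbb-b2. Hba-a1 and Hba-a2, and likewise Hbb-b1 and Hbb-b2, therefore could not be told apart, and a share of Hbb-b2 in beta globin could not be computed. The 2 Alas2 transcripts differed by at most 4 counts in any library.

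The alpha genes are close to identical in sequence. Their coding parts of 429 bases, read from GENCODE M21 transcripts, differed at 1 position, and 86.9% of the 50-base stretches of the Hba-a2 transcript also occurred in Hba-a1. The second alpha row stood at 0.876 to 0.887 of the first in Ercc1 delta/+ libraries and at 0.875 to 0.883 in wild type libraries. How the authors counted reads that match both copies is not given in the sources used here. The sum of the 2 distinct alpha rows, used below as the alpha globin level, may therefore hold the same read more than once. Hbb-bt and Hbb-bs also differed at 1 of 444 coding bases.

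Beta globin was lower in every Ercc1 delta/+ library than in any wild type library. Its level in CPM (counts scaled to a common library size, with TMM scaling factors), was 49.1, 78.2, 57.9 and 63.0 CPM in Ercc1 delta/+ replicates 1 to 4, against 89.7, 102, 110 and 125 CPM in wild type replicates 1 to 4. The lowest mutant was replicate 1, the highest mutant was replicate 2, and the wild type libraries began above both. The means were 62.0 ± 12.2 CPM in Ercc1 delta/+ and 107 ± 15.0 CPM in wild type (± SD of n = 4 per group). The log2 fold change was -0.79 (SE 0.15), which is 0.580 times the wild type mean, and the edgeR quasi-likelihood test gave an unadjusted p of 0.000418 and an adjusted p of 0.0602, so beta globin missed the threshold. At an unadjusted p of 0.05, which beta globin and alpha globin passed and Alas2 did not, 9.57% of genes were lower in Ercc1 delta/+ and 18.6% differed in either direction. Groups that did not overlap in this direction were found for 6.86% of all genes tested, and 0.474% of them had a log2 fold change as low as that of beta globin or lower. On log2(CPM + 1) the difference was -0.78, with an exact two-sided permutation p of 0.0286, the smallest that 4 against 4 libraries can give.

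The call for beta globin differed between tools and with 1 library left out. The authors' deposited table gives a log2 fold change of -0.83 and an adjusted p of 3.77e-05 for each beta row, where 0.843% of its rows were lower at 0.05. DESeq2 gave an adjusted p of 0.000112, where it called 3.83% of genes lower, and the quasi-likelihood test without Ercc1 delta/+ replicate 2 gave a log2 fold change of -0.92 and an adjusted p of 0.0459. Over all 16 alternatives the log2 fold change of beta globin lay between -0.92 and -0.69 and its adjusted p between 0.000112 and 0.176. With library depth as a term, splitting off the 4 libraries that had the fewest counts, the log2 fold change was -0.80 and the adjusted p 0.149.

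Alpha globin was lower on average by a smaller factor, and its groups overlapped. The summed alpha level was 187, 286, 218 and 253 CPM in Ercc1 delta/+ replicates 1 to 4, against 270, 321, 335 and 359 CPM in wild type replicates 1 to 4. Mutant replicate 2 lay above wild type replicate 1, and the other 3 mutants lay below all wild type libraries. The means were 236 ± 42.8 CPM in Ercc1 delta/+ and 321 ± 37.6 CPM in wild type (± SD of n = 4 per group). The row of higher count had a log2 fold change of -0.45 (SE 0.14), which is 0.733 times the wild type mean, and an adjusted p above the threshold (edgeR quasi-likelihood test, 0.137, range 0.0375 to 0.283 over 16 alternatives). DESeq2 gave the lowest of these, 0.0375, and 3.66% of genes had a log2 fold change as low or lower in the quasi-likelihood fit. For the sum, the exact two-sided permutation p was 0.0571 on log2(CPM + 1). In the authors' deposited table the alpha rows have log2 fold changes of -0.48 and adjusted p-values of 0.0650 and 0.0664.

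Alas2, the erythroid enzyme of heme synthesis, was measured at a far lower depth and showed no difference past the test. The 8 libraries held 65, 75, 69 and 66 counts in Ercc1 delta/+ replicates 1 to 4 and 95, 77, 93 and 122 counts in wild type replicates 1 to 4 (row NM_009653), where counting error alone is 9.05% to 12.4% of the value. In CPM the mutant libraries stood at 3.02, 4.25, 2.50 and 3.02, against 3.67, 3.82, 3.66 and 3.72 in the wild type libraries. The wild type values spread less than counting error would give on its own, while mutant replicate 2 was the highest of all 8 and the other 3 mutants lay below all wild type libraries. Alas2 averaged 3.20 ± 0.744 CPM in Ercc1 delta/+ and 3.72 ± 0.0713 CPM in wild type (± SD of n = 4 per group). The log2 fold change was -0.23 (SE 0.17, edgeR quasi-likelihood test, adjusted p = 0.517), and the authors' deposited table gives -0.26 for this row with an adjusted p of 0.790.

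**Figure D1:**
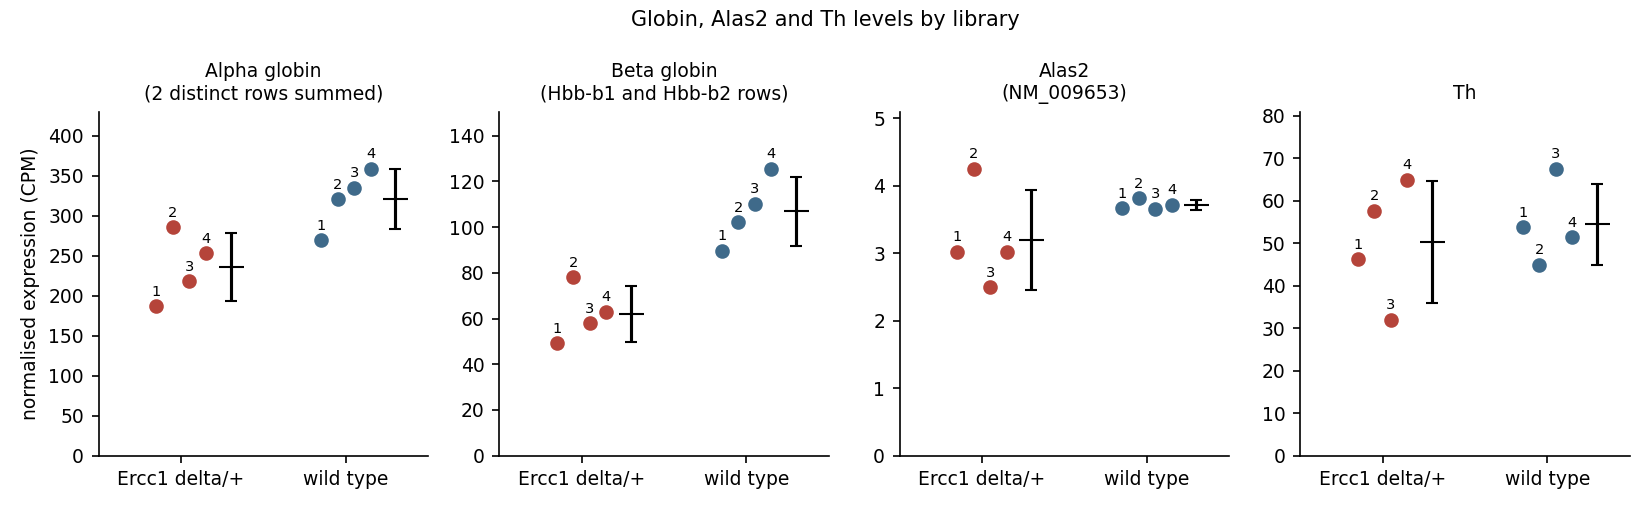
Normalised expression in CPM (vertical axes, each from 0) of summed alpha globin, beta globin, Alas2 and Th, with Ercc1 delta/+ libraries in red on the left and wild type libraries in blue on the right. Points are libraries numbered by replicate, and black bars give the mean and SD (n = 4). Beta globin lies between 49.1 and 78.2 CPM in Ercc1 delta/+ and between 89.7 and 125 CPM in wild type, while the groups overlap for the other 3.

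In this tissue the globin transcripts were abundant and Alas2 was not. Per kilobase of transcript, the alpha row of higher count stood at 237 CPM, rank 155 of 14704 genes with a known length, and beta globin at 120 CPM, rank 468. Alas2 stood at 1.70 CPM per kilobase, above 18.5% of genes only. Th, which encodes the rate-limiting enzyme of dopamine synthesis and marks the dopaminergic neurons, stood at 28.6 CPM per kilobase.

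The ratio of alpha to beta globin, which does not depend on library size, separated the genotypes. Summed alpha over beta counts was 3.80, 3.65, 3.77 and 4.02 in Ercc1 delta/+ replicates 1 to 4, against 3.01, 3.14, 3.04 and 2.86 in wild type replicates 1 to 4. Every mutant ratio lay above every wild type ratio, and the gap between the groups exceeded the range within each. The means were 3.81 ± 0.153 in Ercc1 delta/+ and 3.01 ± 0.117 in wild type (± SD of n = 4 per group), a difference of 0.799 (exact two-sided permutation p = 0.0286, the smallest possible). With the alpha row of higher count alone the ratio was 2.03 ± 0.0802 in Ercc1 delta/+ and 1.60 ± 0.0619 in wild type (± SD of n = 4 per group), a difference of 0.422 with the same exact permutation p of 0.0286. Because reads that match several copies may be counted more than once, the size of the ratio need not be that of the 2 kinds of transcript. Which beta cluster each library carried was not determined, so the part of strain origin in the ratio was not tested.

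The 2 libraries of opposite genotype that lay closest in alpha globin differed the same way. Ercc1 delta/+ replicate 2 and wild type replicate 1 stood at 286 and 270 CPM of alpha globin, but at 78.2 and 89.7 CPM of beta globin. The pair was singled out after its values were seen.

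Set against Alas2, the groups stayed apart for beta globin and overlapped for alpha globin. Beta counts per Alas2 count were 16.3, 18.4, 23.2 and 20.8 in Ercc1 delta/+ replicates 1 to 4, against 24.4, 26.8, 30.1 and 33.7 in wild type replicates 1 to 4. Alpha counts per Alas2 count ran from 61.8 to 87.4 in Ercc1 delta/+ and from 73.5 to 96.4 in wild type. These 2 ratios were not tested, and the low counts of Alas2 limit both, with a counting error of 9.05% to 12.4%. The beta values of the 2 groups came as close as 23.2 and 24.4. The globin counts are the same as above, so the ratios are no separate evidence.

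**Figure D2:**
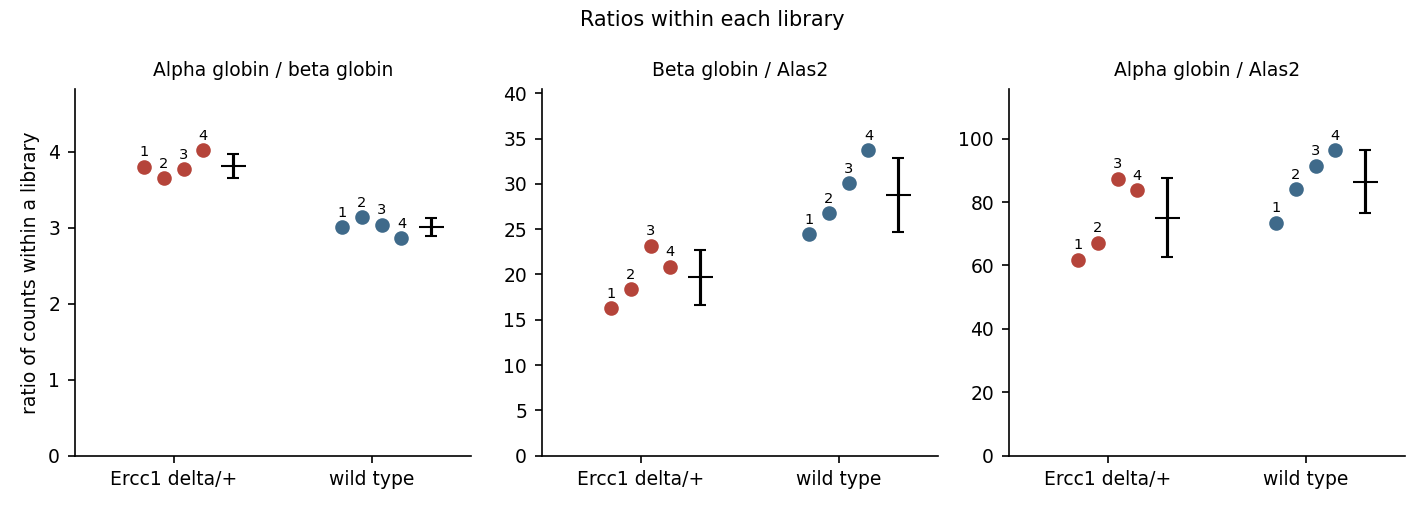
Ratios of counts within each library (vertical axes, each from 0): alpha to beta globin, beta globin to Alas2 and alpha globin to Alas2, with Ercc1 delta/+ in red on the left and wild type in blue on the right. Points are numbered by replicate, and black bars give the mean and SD (n = 4). The alpha to beta ratio is 3.65 to 4.02 in Ercc1 delta/+ and 2.86 to 3.14 in wild type.

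Across the 8 libraries the alpha and beta levels moved together. Pearson's r of log2(CPM + 1) was 0.968 (exact permutation p = 9.92e-05, adjusted 0.000595 over 6 pairs) and Spearman's rho was 0.976 (exact permutation p = 0.000397, adjusted 0.00238). Without the 2 libraries farthest from the median alpha level, Ercc1 delta/+ replicate 1 and wild type replicate 4, r was 0.937 (n = 6, exact permutation p = 0.00694, adjusted 0.0417). In this setting rho was 0.943 and missed the threshold after adjustment (exact permutation p = 0.0167, adjusted 0.1). For deviations from the group means, permuted within groups, r was 0.973 (exact permutation p = 0.00347, adjusted 0.0208), so the relation held within genotypes. A shared library and shared scaling enter both levels.

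Alas2 followed the globins less closely. Its counting error was 9.05% to 12.4%, against at most 3.08% for the globin rows, which by itself lowers r. With alpha globin r was 0.715 (exact permutation p = 0.0460, adjusted 0.107) and rho 0.690 (exact permutation p = 0.0694, adjusted 0.208). With beta globin r was 0.702 (exact permutation p = 0.0534, adjusted 0.107) and rho 0.619 (exact permutation p = 0.115, adjusted 0.230). Both relations missed the threshold after adjustment. Without Ercc1 delta/+ replicates 1 and 3, the libraries farthest from the median Alas2 level, r was 0.404 with alpha and 0.409 with beta globin. Mutant replicates 1 and 4 were all but tied in Alas2, at 3.02 CPM each, and leaving out extremes narrows the range, which tends to lower r. With 1 library left out r ran from 0.669 to 0.792 with alpha and from 0.653 to 0.850 with beta globin. For deviations from the group means r was 0.573 with alpha and 0.602 with beta globin (exact permutation p = 0.290 and 0.203).

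No relation with Th passed the test. Th stood at 46.3, 57.7, 32.0 and 64.9 CPM in Ercc1 delta/+ replicates 1 to 4 and at 53.8, 44.9, 67.5 and 51.5 CPM in wild type replicates 1 to 4, so the groups overlapped (log2 fold change -0.12, SE 0.21, edgeR quasi-likelihood adjusted p = 0.798). Without mutant replicate 3 or wild type replicate 3 that fold change was 0.05 and 0.0017. Pearson's r with Th was 0.451 for alpha globin, 0.370 for beta globin and 0.567 for Alas2 (exact permutation p = 0.267, 0.379 and 0.144, adjusted 0.320, 0.379 and 0.216). Spearman's rho was 0.333, 0.310 and 0.214 (exact permutation p = 0.428, 0.462 and 0.619, adjusted 0.554, 0.554 and 0.619). Without replicate 3 of each group, the 2 libraries farthest from the median Th level, r was 0.03, -0.16 and -0.09 in the same order.

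**Figure D3:**
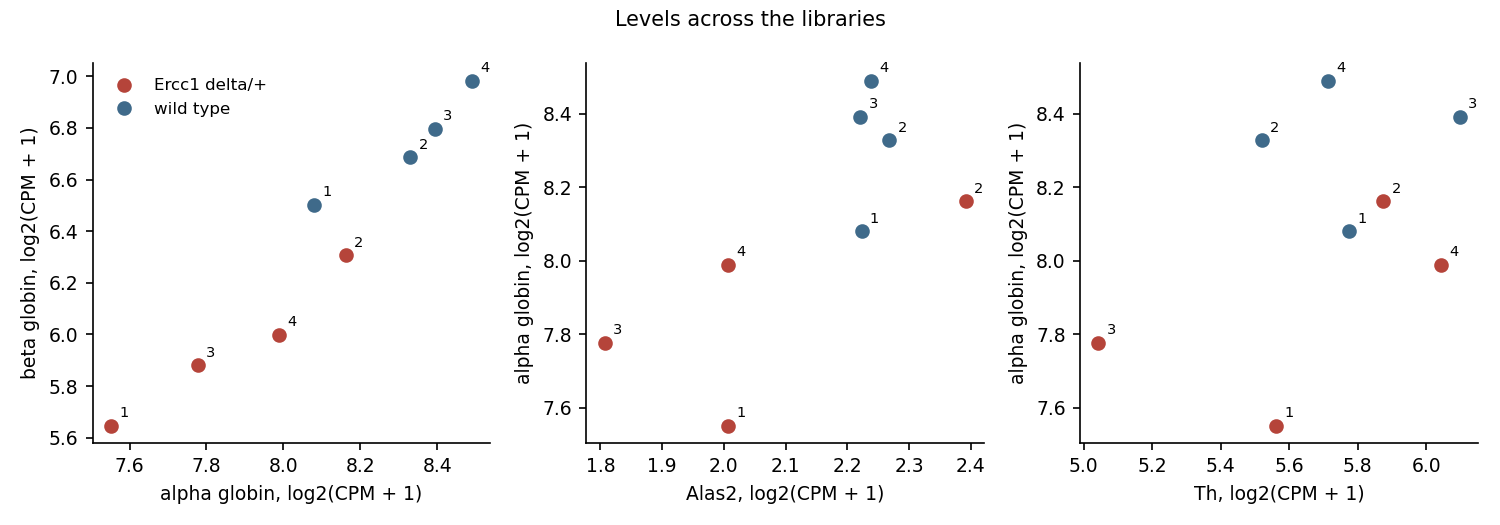
Levels in log2(CPM + 1) of beta against alpha globin (left), alpha globin against Alas2 (middle) and alpha globin against Th (right), with Ercc1 delta/+ libraries in red and wild type libraries in blue, numbered by replicate. The 8 points of alpha and beta globin lie near a line (r = 0.968), and those with Th are scattered (r = 0.451).

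The stretches of 250 bases before the start of transcription are shown as a description, and their part in the levels was not tested. They are from RefSeq on GRCm38.p6, not the mm9 build of the counts, and are written 5′ to 3′ with matches to 4 motifs in capitals on either strand. The GATA motif, bound by factors of that name in erythroid cells, was searched as AGATAA and also in its second form as TGATAA. The CACCC motif is bound by erythroid factors of the Krüppel-like family. The CCAAT box and the TATA box, the last of these searched as ATATAA, belong to many core promoters. No match overlapped another, though 2 CCAAT matches of Hbb-bt abut and the CACCC matches of Alas2 form a single run. Hba-a1 lies on the plus strand at chr11:32283422-32283671, Hbb-bt, the gene of NM_008220, on the minus strand at chr7:103813924-103814173 and Alas2 on the plus strand at chrX:150547167-150547416.
Hba-a1: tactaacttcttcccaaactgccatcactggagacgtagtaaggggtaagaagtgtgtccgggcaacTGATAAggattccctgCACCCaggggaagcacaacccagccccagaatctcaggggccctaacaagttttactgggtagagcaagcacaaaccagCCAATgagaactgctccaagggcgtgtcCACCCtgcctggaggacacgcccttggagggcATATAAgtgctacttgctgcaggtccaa
Hbb-bt: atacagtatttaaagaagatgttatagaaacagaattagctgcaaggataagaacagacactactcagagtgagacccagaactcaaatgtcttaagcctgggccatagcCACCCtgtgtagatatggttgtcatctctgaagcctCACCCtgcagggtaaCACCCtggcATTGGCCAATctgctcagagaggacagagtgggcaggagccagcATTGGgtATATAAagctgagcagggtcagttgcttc
Alas2: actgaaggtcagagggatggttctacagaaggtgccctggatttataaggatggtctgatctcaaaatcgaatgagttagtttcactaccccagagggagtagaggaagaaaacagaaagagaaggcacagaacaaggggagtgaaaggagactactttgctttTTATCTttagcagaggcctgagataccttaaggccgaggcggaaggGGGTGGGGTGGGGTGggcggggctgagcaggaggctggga

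Hba-a1 held all 4 motifs, with 1 GATA, 2 CACCC, 1 CCAAT and 1 TATA match, and Hba-a2, which shares an unbroken 247 of the 250 bases with it, held the same. Hbb-bt held 3 CACCC, 3 CCAAT and 1 TATA match, and its neighbour Hbb-bs held all 4 motifs. Alas2 held 1 GATA and 3 CACCC matches and neither of the others. Among 32851 promoters of the same length 16.6% held the GATA letters, 52.0% CACCC, 33.8% CCAAT and 9.10% TATA, and 0.344% held all 4. A match is a description of letters, not a site of binding.

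Other globin genes were sparse or were not past the test. Hba-x, the embryonic zeta-like gene of the alpha cluster, had 16, 0, 12 and 14 counts in Ercc1 delta/+ replicates 1 to 4, against 22, 38, 48 and 64 counts in wild type replicates 1 to 4. The groups did not overlap, and the 0 in mutant replicate 2, the mutant library with the most alpha and beta globin, allows up to 0.170 CPM. Its log2 fold change was -1.80 (SE 0.56) with an edgeR quasi-likelihood adjusted p of 0.140, and the authors' deposited table gives -1.80 with an adjusted p of 0.00238. Of the 6 other globin genes tested, 5 had negative fold changes, against 50.5% of all genes (median log2 fold change -0.41), and none passed the test. Groups did not overlap for 2 of the 6, Hba-x and Mb, both lower in Ercc1 delta/+. Among all genes 6.86% were lower in this way, and the count for the list was not tested.

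The other members of that list are globins outside the red cell or of low count. Mb, the myoglobin gene, had a log2 fold change of -0.84 (SE 0.30) at 0.528 ± 0.205 CPM in Ercc1 delta/+ and 0.966 ± 0.136 CPM in wild type (± SD of n = 4 per group). Ngb, which encodes the neuronal globin neuroglobin, stood at 28.1 ± 8.77 CPM in Ercc1 delta/+ and 36.4 ± 11.5 CPM in wild type, with overlapping groups. Cygb, the cytoglobin gene, stood at 117 ± 21.9 CPM in Ercc1 delta/+ and 110 ± 8.92 CPM in wild type, and was the single gene of the list with a positive fold change.

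The rest of the heme pathway moved little. All 9 genes of heme synthesis were tested, Alas2 among them; 8 were negative against 50.5% of all genes, the median log2 fold change was -0.09, and none passed the edgeR quasi-likelihood test. Uros, which encodes uroporphyrinogen III synthase, was the only one whose groups did not overlap. Among all genes 12% did not overlap in either direction and 6.86% were lower in this way. Uros stood at 16.7 ± 1.15 CPM in Ercc1 delta/+ and 20.3 ± 1.15 CPM in wild type (± SD of n = 4 per group). Its log2 fold change was -0.28, with an edgeR quasi-likelihood adjusted p of 0.123. Alas1, the form of the first enzyme used outside red cells, had a log2 fold change of 0.13 and Fech, which inserts iron into the ring, one of -0.11.

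Genes that carry iron and heme were similar. Of 13 genes of mitochondrial iron and heme transport 9 were negative (median log2 fold change -0.09), led by Abcb10 at -0.14 and Glrx5 at -0.25. Of 13 genes of iron uptake and storage 9 were negative (median -0.04), led by the transferrin receptor gene Tfrc at -0.41. The next of these by p, Cp, went the other way at 0.41. Of 7 tested genes of heme and hemoglobin clearance 4 were positive (median 0.00082). Cd163, the hemoglobin scavenger receptor gene of macrophages, had a log2 fold change of 0.71 (SE 0.26) and Lrp1, a receptor that takes up heme bound to hemopexin, one of 0.36. None of the genes in these 3 lists passed the test (lowest adjusted p = 0.155, for Lrp1).

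Defining genes of red cells and their precursors had no row in the table. Of 30 red cell genes 18 had a row and 17 were tested, and among the 12 without one were Slc4a1, Rhag, Ahsp and Hemgn; the lowest total of any row was 31 counts over the 8 libraries. The measured ones, such as Slc2a1, Car2 and Sptb, are also expressed by brain cells. They were 9 positive and 8 negative (median log2 fold change 0.05), none passed the edgeR quasi-likelihood test, and their summed level was 1639 to 2271 CPM in Ercc1 delta/+ and 1520 to 1933 CPM in wild type. The closest to the threshold was Slc2a1, the glucose transporter gene of red cells and brain endothelium, at 182 ± 18.8 CPM in Ercc1 delta/+ and 122 ± 9.14 CPM in wild type (log2 fold change 0.58, SE 0.09, adjusted p = 0.0503). Its groups did not overlap, which in this direction held for 5.17% of all genes and in either direction for 12%. The next genes by p had overlapping groups and differed in direction. Prdx2, a red cell peroxiredoxin gene, stood at a log2 fold change of -0.29. Bnip3l, which acts in the removal of mitochondria from reticulocytes, stood at -0.26. Aqp1 went the other way at 1.90, highest at 8.69 CPM in mutant replicate 3, which was also highest in the choroid plexus genes below. A part of choroid plexus in the Aqp1 level was not tested. Bpgm, which makes the red cell metabolite bisphosphoglycerate, stood at -0.25. The edgeR quasi-likelihood adjusted p-values of Prdx2, Bnip3l, Aqp1 and Bpgm were 0.166, 0.202, 0.206 and 0.240 in this order. At an unadjusted p of 0.05 in the quasi-likelihood test, 2 genes of the list were higher and 3 lower in Ercc1 delta/+. Among all genes 18.6% passed this in either direction and 9.57% were lower, and the counts for the list were not tested.

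Transcription factors and sensors that act in erythroid cells gave no call either. Gata1, Klf1, Nfe2 and Gfi1b had no row, and of the 10 tested 7 were positive (median log2 fold change 0.11). Groups did not overlap for 3 higher genes, Zbtb7a, Epas1 and Ldb1, and for 1 lower gene, Hif1a. Among all genes 5.17% were higher and 6.86% lower in this way, and the counts were not tested. Epas1 and Ldb1 had log2 fold changes of 0.13 and 0.11. Zbtb7a and Bcl11a, repressors of fetal globin genes in human red cells, stood at log2 fold changes of 0.28 (SE 0.09) and 0.61 (SE 0.27), and Hif1a, the oxygen-regulated factor, at -0.15, with adjusted p-values of 0.143, 0.260 and 0.174.

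Most markers of other blood cells had no row or a low level. Of 12 neutrophil genes 11 had no row, S100a8 and S100a9 included, and Mmp9 alone was measured, with a log2 fold change of 0.09. Of 12 lymphocyte genes only Cd4 and Cd79a were measured, neither past the test (log2 fold changes -0.15 and 0.11). Of 4 platelet genes tested Itga2b had the lowest p, at 3.03 ± 0.249 CPM in Ercc1 delta/+ and 3.61 ± 0.117 CPM in wild type (± SD of n = 4 per group, log2 fold change -0.25, adjusted p = 0.319), and Pf4 stood at 0.648 ± 0.208 CPM in Ercc1 delta/+ and 0.623 ± 0.236 CPM in wild type. Gp1bb, a platelet glycoprotein gene, was the exception in level, at 140 ± 29.3 CPM in Ercc1 delta/+ and 119 ± 35.1 CPM in wild type, with overlapping groups (log2 fold change 0.24, edgeR quasi-likelihood adjusted p = 0.579).

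Vessel genes were mixed in direction and choroid plexus genes were positive, and no test of a shared direction was run. The 15 brain endothelium genes summed to 410 to 511 CPM in Ercc1 delta/+ and 372 to 455 CPM in wild type, 10 of them positive and 5 negative (median log2 fold change 0.12), none past the test. Flt1, a receptor for vascular growth factors, and Esam stood at log2 fold changes of 0.43 and 0.23 (edgeR quasi-likelihood adjusted p = 0.0664 and 0.252). They were the only 2 of the list whose groups did not overlap, both higher in Ercc1 delta/+, as in 5.17% of all genes. Itm2a and Slco1a4, the negative ones of smallest p, stood at -0.24 each (adjusted p = 0.277 and 0.335). All 10 choroid plexus genes were positive (median 1.70) and none passed the test; they summed to 104 to 1201 CPM in Ercc1 delta/+ and 105 to 187 CPM in wild type, highest in mutant replicate 3 and lowest in mutant replicate 4. The 16 dopaminergic neuron genes summed to 347 to 623 CPM in Ercc1 delta/+ and 465 to 685 CPM in wild type, 12 of them negative (median -0.09) and none past the test. In bulk tissue fewer blood or neuronal cells and less globin RNA per cell cannot be told apart, and the part of vessels or choroid plexus in the globin levels was not tested. The part of the strain origin of the beta cluster in the beta globin level was not tested either.

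**Figure D4:**
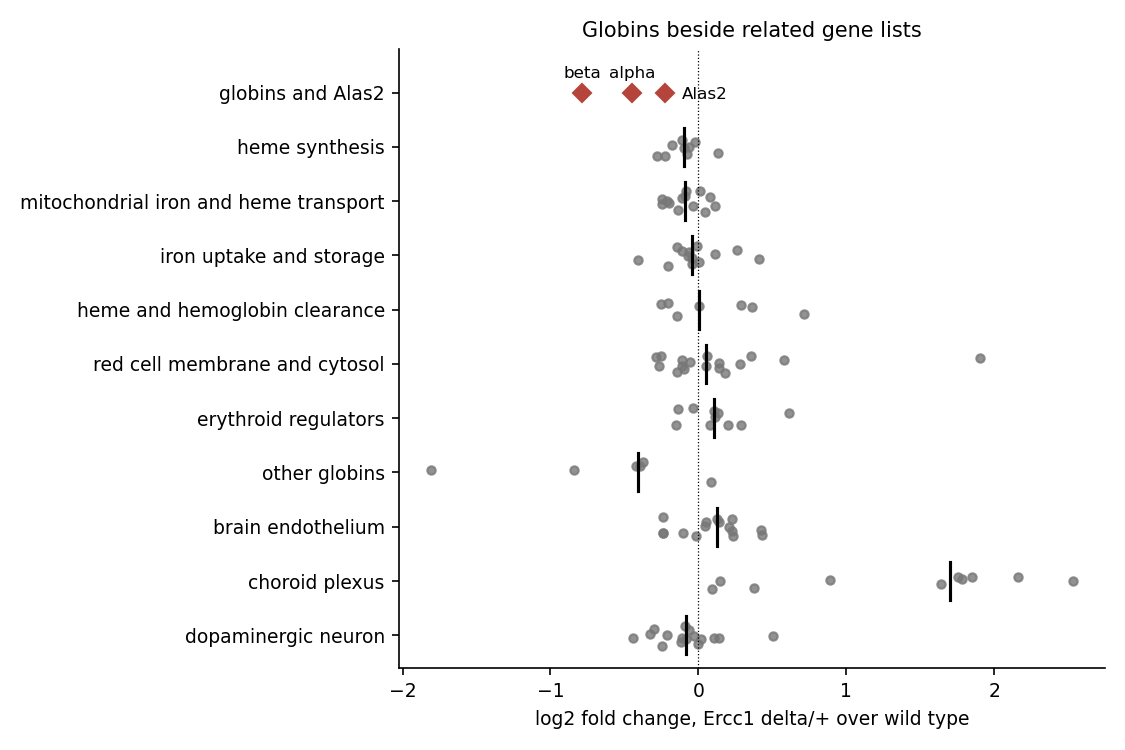
Log2 fold changes of Ercc1 delta/+ over wild type (horizontal axis) for the row of higher count of alpha globin, beta globin and Alas2 (red diamonds, top) and for the tested genes of 10 lists (grey points, black bar at the median). Beta globin lies at -0.79 and alpha globin at -0.45, heme synthesis genes lie near 0 with a median of -0.09, and choroid plexus genes lie to the right with a median of 1.70.

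Genes whose level over the 8 libraries was most like the mean of alpha and beta globin were found among 14179 genes of at least 1 CPM, as a description with no test. The highest Pearson r of log2 CPM belonged to Npm1 (0.977), Triqk (0.973), Eef1akmt2 (0.968), the unnamed row NM_001013578 (0.966), Cops4 (0.960), Ranbp1 (0.960), Atxn10 (0.959) and Rpl7 (0.958). In all 8 the groups did not overlap and were lower in Ercc1 delta/+, as in 6.86% of all genes, but likeness to a level that differs between the genotypes favours such genes, so the count is no result. Their log2 fold changes ran from -0.63 for Triqk to -0.13 for Atxn10, and none of them passed the edgeR quasi-likelihood test. Npm1, which encodes a nucleolar chaperone, stood at 96.1 ± 7.63 CPM in Ercc1 delta/+ and 118 ± 6.15 CPM in wild type (± SD of n = 4 per group). Within genotypes, by deviations from the group means, Npm1 ranked 12 (r = 0.922) and the other 7 ranked between 17 for Triqk and 89 for Rpl7 (r = 0.918 and 0.853), so the order changed once the genotype difference was removed.

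In that order Alas2 ranked 1353 (r = 0.716) and Th ranked 3647 (r = 0.406). The genes most like Alas2 were Aqp9, a channel for water and glycerol (0.988), Lrig1, a growth factor receptor regulator (0.984), Prmt7, an arginine methyltransferase (0.970), Saal1 (0.960) and Nif3l1 (0.960), among 14180 genes. Alpha globin ranked 793 and beta globin 887 in likeness to Alas2. The 8 libraries share their scaling and, in part, their depth.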

How the data were processed

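Per the labels' protocols, RNA of the ventral midbrain was kept where its quality score passed a threshold, poly(A) RNA was selected, and barcoded libraries of both genotypes shared a sequencing lane. Per the submitters' processing notes, TopHat 1.3.1, edgeR and the mm9 build were used. The authors deposited raw counts per coding RefSeq transcript, with log2 fold changes, p-values and adjusted p-values of their own comparison, per the file headers. The counting tool and its treatment of strand and of reads that match several places are not stated in what was used here, and near-identical, overlapping or antisense genes are therefore uncertain.

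Rows were matched to symbols through RefSeq (GRCm38.p6) and GENCODE M21 tables, used for names, chromosomes and lengths only; 19600 of 19931 matched. The row with the highest total stood for a gene, and 45 genes whose counts equalled those of another gene were merged, leaving 15274. The main test was edgeR 4.0.16 (R 4.3.3), quasi-likelihood, TMM, filterByExpr, Benjamini-Hochberg adjustment over 14989 genes, threshold 0.05; SE is the estimate over the root of F. It was also run on simulated counts drawn independently for each gene, which cannot show how it performs on these data. CPM is TMM-normalised; log2 CPM uses a prior count of 2 for likeness and a pseudocount of 1 elsewhere. Single values used exact permutation tests (scipy 1.17.1). Alternatives were RLE scaling, no filter, a stricter filter, DESeq2 1.42.0, limma-voom (limma 3.58.1), the replicate number as a block, every row on its own, each library left out, a pseudocount of 0.5, and, added after seeing the data, a depth term and the alpha row of higher count alone. Replicates differed beyond sampling noise (lowest chi-square over degrees of freedom 11.9). Named genes were the 5 members and Th, up to 4 genes per list with the smallest p, and the 8 and 5 most alike; not all are printed. The members and lists were chosen with earlier results of these data known. Floors of 3 counts and intervals cover counting error only.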

Additional observations from a re-analysis of the deposited data

Results flagged for a closer look

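The second alpha globin row was 0.883 of the first in wild type replicate 3, against 0.877, 0.876 and 0.875 in wild type replicates 1, 2 and 4, so this library stood apart from its group by a distance that is small in itself. The summed level of the lymphocyte genes Cd4 and Cd79a was 13.9 CPM in wild type replicate 2, against 0.657, 2.91 and 1.04 CPM in wild type replicates 1, 3 and 4. Over 54 groups of 4 libraries examined this way, chance alone flags about 1 in 20.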

How the results depend on the processing

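The number of genes past the threshold, 7, was 33 with RLE scaling, 50 with the stricter filter, 1024 with DESeq2, 52 with limma-voom, 4 with every row on its own, 1 with the depth term and 0 with the replicate block (2928 at an unadjusted p of 0.05). It was 3, 321, 1 and 0 without Ercc1 delta/+ replicates 1 to 4 (2101 at an unadjusted p of 0.05 without replicate 4) and 2, 1, 1 and 1 without wild type replicates 1 to 4. Alpha and beta globin and Alas2 kept a negative log2 fold change in all 16 alternatives; calls were gained by DESeq2 for alpha (-0.44) and beta globin (-0.78) and, for beta globin, without Ercc1 delta/+ replicate 2. Leaving out each library gave -0.55 to -0.35 for alpha globin, -0.92 to -0.69 for beta globin, -0.39 to -0.12 for Alas2 and -0.27 to 0.049 for Th (0.049 without Ercc1 delta/+ replicate 3, 0.0017 without wild type replicate 3). Replicate numbers did not pair the libraries (correlations of deviations for the same number -0.30, 0.17, -0.11 and 0.29). With the replicate block the difference in log2(CPM + 1) of beta globin (-0.78) and in the alpha to beta ratio (0.799) had an exact permutation p of 0.125, the smallest that 4 differences can give. With a library left out they lay at -0.90 to -0.68 and 0.729 to 0.852, with an exact permutation p of 0.0571, the smallest that 3 against 4 gives. The relation of alpha and beta globin kept its call by Pearson's r in all 12 alternatives (r 0.937 to 0.981). By Spearman's rho it missed the threshold without the 2 farthest libraries (rho 0.943, exact permutation adjusted p = 0.1). Relations with Th changed sign without the 2 farthest libraries, to -0.16 for beta globin and -0.086 for Alas2, and that of Th and Alas2 ran from -0.019 to 0.79 with 1 library left out; the cause was not tested. The share of Hbb-b2 could not be computed. Counts are low for Alas2 and lower for Hba-x, Hbq1a, Hbq1b and Mb, which limits their precision.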
